A study of Mus musculus with 18 samples.

Results

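The 50 genes described here encode proteins that shape the plasma membrane during endocytosis: clathrin and its adaptor complex AP2, dynamins, BAR-domain proteins and their accessory factors. They were listed by symbol for their known roles, and all 50 were found among the 51912 genes of the table through the GRCm38 annotation. WT and Sh3gl1-/- mice of the C57BL/6 strain gave the B cells from which RNA had been sequenced. There were 3 libraries for each genotype and cell state, 18 in 6 groups. Untreated transitional (TRANS) and follicular (FO) B cells of both genotypes were sorted by flow cytometry, and follicular cells of both genotypes were also cultured with CD40L for 14 h according to the labels. The WT mice were littermates of the knockouts, the ages of the animals are not given with the labels, and the Sh3gl1 deletion is carried in the germline, so every cell of the knockout animals lacks the gene and not only the B cells.

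Clathrin-mediated endocytosis starts when AP2 and early-arriving scaffolds gather at the plasma membrane, collect cargo receptors and recruit clathrin triskelia built of heavy and light chains. BAR-domain proteins sense and bend the neck of the growing pit, dynamin severs it, and synaptojanin and auxilin help to strip the coat from the vesicle. In B cells this route carries antigen bound to the B-cell receptor towards the compartments where peptides are loaded. Sh3gl1 encodes endophilin A2, a BAR-domain protein that binds dynamin and synaptojanin and acts in a fast clathrin-independent route. The question addressed here is whether transcripts of the clathrin machinery and of the other curvature proteins differed in cells without endophilin A2, and how they differed between the cell states.

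Many of the listed genes belong to small families of paralogs, and the members with the largest differences after CD40L came from such pairs. The DNA before a RefSeq start of each gene in 3 of these pairs is shown because in each pair the paralogs differed in direction or extent under CD40L. RefSeq entries matched 41 of the 50 genes, and for each gene the 250 bases before the start nearest its annotated 5′ end were taken from the GRCm38.p6 table. Only the longest stretch outside annotated exons is printed, 5′ to 3′ on the strand of the gene. Capitals mark matches on either strand to GGGCGG, the GC box, and to CCAAT. The stretches lie at chr16:91729121-91729280 (+) for Itsn1, chr12:4592932-4593007 (+) for Itsn2, chr17:27684989-27685180 (+) for Pacsin1, chr15:83464607-83464856 (-) for Pacsin2, chr5:135545123-135545372 (-) for Hip1 and chr5:123973378-123973627 (+) for Hip1r. The Pacsin1 and Itsn2 stretches precede RefSeq starts that lie inside the annotated genes, which begin at 27655509 on chromosome 17 and at 4592638 on chromosome 12, so they are not upstream of the whole gene.
Itsn1: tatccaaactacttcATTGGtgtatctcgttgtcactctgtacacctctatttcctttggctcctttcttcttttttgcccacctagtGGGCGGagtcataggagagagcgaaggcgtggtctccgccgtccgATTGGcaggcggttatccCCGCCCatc
Itsn2: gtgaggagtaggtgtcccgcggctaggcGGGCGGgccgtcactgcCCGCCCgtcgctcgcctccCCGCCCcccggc
Pacsin1: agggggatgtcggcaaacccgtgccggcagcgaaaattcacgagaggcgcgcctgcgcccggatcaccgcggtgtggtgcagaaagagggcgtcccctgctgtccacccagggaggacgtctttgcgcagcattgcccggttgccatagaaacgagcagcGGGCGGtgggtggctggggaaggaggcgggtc
Pacsin2: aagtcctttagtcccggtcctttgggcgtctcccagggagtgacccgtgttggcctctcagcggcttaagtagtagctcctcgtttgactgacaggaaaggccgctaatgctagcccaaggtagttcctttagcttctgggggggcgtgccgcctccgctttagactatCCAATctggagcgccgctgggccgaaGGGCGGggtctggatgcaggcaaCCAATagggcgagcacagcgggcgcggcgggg
Hip1: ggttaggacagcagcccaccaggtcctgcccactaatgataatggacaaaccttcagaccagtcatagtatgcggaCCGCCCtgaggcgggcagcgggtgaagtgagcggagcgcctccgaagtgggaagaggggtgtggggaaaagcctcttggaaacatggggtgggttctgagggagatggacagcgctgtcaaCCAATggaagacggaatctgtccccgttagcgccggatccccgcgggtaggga
Hip1r: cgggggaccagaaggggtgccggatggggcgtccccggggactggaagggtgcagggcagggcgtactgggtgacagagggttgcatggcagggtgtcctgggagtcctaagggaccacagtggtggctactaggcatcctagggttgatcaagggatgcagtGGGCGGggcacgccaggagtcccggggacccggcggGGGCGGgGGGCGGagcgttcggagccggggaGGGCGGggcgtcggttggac

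The GC box was in the whole windows of 27 of the 41 genes (65.9%), against 32.7% of all 32851 windows of the same length. The listed genes had a single window each, while the background took every start, including several of the same gene and genes not expressed here. The difference is therefore not shown to be particular to the listed genes. The windows of the listed genes had a median GC content of 60.8%, against 52.4% over all windows, and a median of 18 CpG dinucleotides against 6. CCAAT was in 11 of the 41 windows (26.8%) and in 33.8% of all windows. Of the CCAAT matches in these 3 pairs, 2 lay in the Itsn1 window, 2 in the Pacsin2 window and 1 in the Hip1 window, while the windows of Itsn2, Pacsin1 and Hip1r held none. The NF-kappaB motif occurred in 0 of the 41 windows and in 1.41% of all windows. Shorter lists of matches were found for CACGTG (5 genes, 12.2%, against 6.02% of all windows), CCGGAAGT (3 genes, Aak1, Ap2s1 and Flot2, 7.32% against 2.88%) and TGACGTCA (2 genes, Ap2b1 and Cltb, 4.88% against 1.55%). The motifs were chosen with results known, no start site was measured in these cells, and a match to letters is a description of the window.

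Total counts per library ranged from 12404665 to 18366011, and a value of 3 counts, taken as the floor, equalled 0.176 to 0.240 CPM (counts scaled by the size of the library). Counts for Sh3gl1 checked the labels: the WT libraries had between 377 and 929 counts, and the Sh3gl1-/- libraries had 4 to 11 in transitional, 1 to 3 in follicular and 11 to 22 in CD40L-cultured cells. The labelled cell type was checked against B-cell markers, in TPM, a length-corrected share of all transcripts. The B-cell receptor subunits Cd79a and Cd79b were between 2060 and 4830 TPM and between 1250 and 4840 TPM in the 18 libraries, and Ms4a1 was between 784 and 2220 TPM. The transcription factor Pax5 was detected in every library. Other cell types also left signal, and some of it moved with genotype. All 5 T-cell markers were detected in each group, and their summed TPM was 35.8 to 56.5 in WT and 60.2 to 80.6 in Sh3gl1-/- transitional libraries, 48.0 to 79.5 and 107 to 145 in follicular libraries, and 7.58 to 9.53 and 13.3 to 14.8 after CD40L. The 5 neutrophil markers summed to 70.9 to 114 TPM in WT and 156 to 720 in Sh3gl1-/- transitional libraries, 92.1 to 204 and 226 to 1050 in follicular libraries, and 9.78 to 57.4 and 61.0 to 227 after CD40L, with Ly6g at 0 in the WT follicular and WT CD40L groups. Erythroid genes (3 of 3) summed to 2800 to 4860 and 5350 to 10800 TPM in the WT and Sh3gl1-/- transitional libraries and to 1680 to 4600 and 3630 to 10300 in the follicular libraries. Marginal-zone genes (4 of 4) summed to 1250 to 1530 TPM in WT and 532 to 692 TPM in Sh3gl1-/- transitional cells. In follicular cells their sums were 672 to 887 and 433 to 464 TPM. The 4 plasma-cell genes summed to 393 to 623 TPM in WT and 986 to 3910 TPM in Sh3gl1-/- transitional cells. Most of this came from Jchain, at 379 to 610 and 974 to 3880 TPM. The ranges of Sdc1 (0.96 to 1.33 and 0.45 to 1.59 TPM), Prdm1 and Xbp1 overlapped between the genotypes. The part of these cells in the results below was not tested, and in bulk RNA fewer cells of a type and less RNA per cell cannot be told apart.

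Transcript levels of the listed genes differed widely and are given in TPM, a unit that corrects for transcript length and allows genes to be compared. In WT follicular cells ex vivo the highest levels were those of Ap2m1, the AP2 subunit that reads tyrosine-based sorting signals, at 204 ± 17.4 TPM (SD, n = 3), followed by the BAR-domain genes Bin1 at 130 ± 20.6 TPM and Bin2 at 104 ± 6.24 TPM. Next in order were Necap2, which encodes an AP2-binding accessory protein, at 95.3 ± 10.1 TPM, the small AP2 subunit Ap2s1 at 95.0 ± 8.01 TPM and the scaffold Itsn2 at 94.7 ± 7.83 TPM. These last 3 genes differed by less than their spread, and Bin1 and Bin2 were separated by little more than the spread of Bin1. The clathrin heavy chain Cltc was at 74.1 ± 3.84 TPM, its light chains Clta at 24.8 ± 4.12 TPM and Cltb at 3.21 ± 0.407 TPM, so that Clta carried between 80.1% and 97.3% of light-chain transcripts in all 18 libraries. Of the dynamins, Dnm2 was at 19.6 ± 1.42 TPM.

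Besides Dnm2 and Itsn2, the study names Picalm, Eps15, Epn1 and Hip1, which lay below the 6 highest levels in the same cells. The adaptor Picalm was at 41.7 ± 2.25 TPM and the scaffold Eps15 at 40.7 ± 1.75 TPM, both above Dnm2. The epsin Epn1 was at 14.2 ± 1.77 TPM and Hip1, which links coats to actin, at 3.53 ± 0.427 TPM. Amph, which encodes the neuronal amphiphysin, had 0 counts in all 18 libraries, which allows up to between 0.176 and 0.240 CPM per library. Dnm1, the dynamin of synapses, never exceeded 3 counts. Pacsin3 and Dnajc6 reached at most 5 and 12 counts and were, like Amph and Dnm1, too low to be tested in any comparison, and Dab2, with at most 32 counts, could be tested only with the transitional libraries. The other 45 genes were tested throughout.

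**Figure D1:**
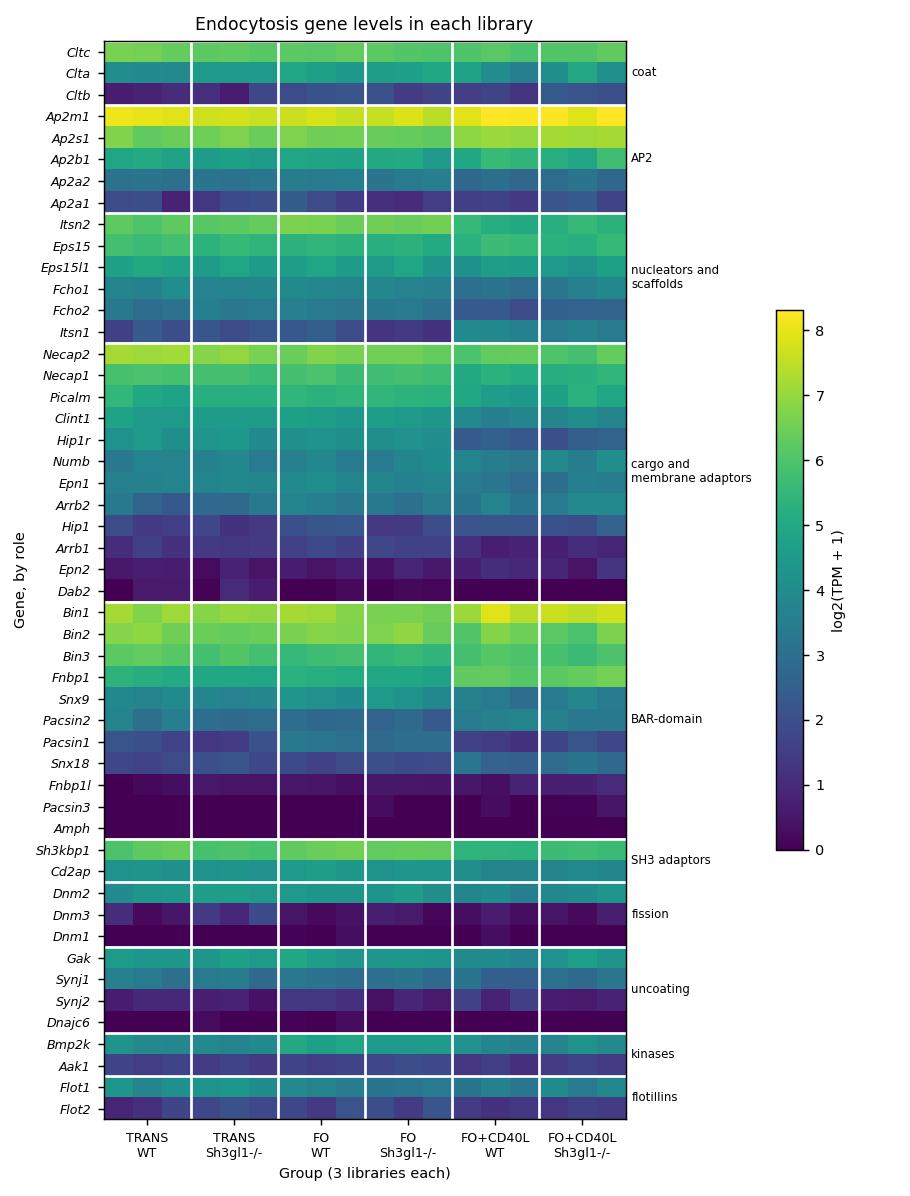
Heat map of log2(TPM + 1) for the 50 genes (rows, ordered by role) in the 18 libraries (columns, by group). Ap2m1, Bin1, Bin2 and Necap2 are among the brightest rows in every library, and Amph, Dnm1, Pacsin3 and Dnajc6 are dark throughout.

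The comparison of genotypes asked whether the loss of endophilin A2 came with altered transcripts for the rest of the machinery. In transitional cells 1 of 46 genes tested was called, the clathrin heavy chain. Cltc (chromosome 11, 86694351 to 86757565, minus strand) had 341, 315 and 300 CPM in the 3 WT libraries and 228, 241 and 235 CPM in the 3 Sh3gl1-/- libraries. The groups did not overlap, and the level was 1.36-fold lower in the knockout (log2 fold change -0.44, SE 0.08, adjusted p = 0.028 by the quasi-likelihood test of edgeR). Over all genes 3.73% were called in this comparison (1.26% higher, 2.48% lower), so 1 gene in 46 was not above that background. The call was lost (adjusted p at or above 0.05) when any of WT libraries 1 and 2 or Sh3gl1-/- libraries 1 and 3 was left out, with fold changes of -0.38, -0.45, -0.42 and -0.44, and in a fit over all 18 libraries. The summed T-cell, neutrophil and erythroid markers and the plasma-cell gene Jchain were higher in these same knockout libraries, as given above.

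The light chain Clta, which encodes the partner that regulates heavy-chain assembly, went the other way without passing the test. It had 12.7, 11.8 and 11 CPM in WT and 17.3, 17.5 and 18.5 CPM in Sh3gl1-/- transitional cells (log2 fold change 0.59, SE 0.14, adjusted p = 0.052 from the edgeR fit). The ranges of the 3 WT and 3 knockout libraries did not overlap for 17 of the 46 genes in transitional cells, 9 higher and 8 lower in the knockout, where 28% of all genes did not overlap (13.6% higher, 14.4% lower). The median log2 fold change over the 46 genes was 0.03, and over all genes it was 0.02.

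In follicular cells ex vivo 0 of 45 genes were called between genotypes by edgeR, where 0.845% of all genes were called. An unadjusted p under 0.05 was found for 6 of them, and for 1481 of all 13610 genes tested. DESeq2 called 2 of the 45 genes, Bin1 and Synj2. These genes and the next were singled out after their values were seen. Synj2, a lipid phosphatase that helps to uncoat vesicles and a binding partner of endophilins, had 5.90, 4.88 and 4.82 CPM in WT and 1.28, 2.62 and 2.29 CPM in Sh3gl1-/- cells, with no overlap (log2 fold change -1.33, SE 0.34, adjusted p = 0.12 from edgeR). In CD40L-cultured cells the same gene had 4.69, 3.28 and 7.28 CPM in WT and 2.47, 1.92 and 2.88 CPM in the knockout (-1.03, SE 0.36, adjusted p = 0.64 from edgeR), and in transitional cells the groups overlapped, at 2.60, 3.65 and 2.84 against 2.52, 2.94 and 1.37 CPM. These are low levels, between 17 and 119 counts per library, and reads of Serac1 on the opposite strand may be among them, since the use of strand in counting is not stated.

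Itsn1, a multi-domain scaffold of the coated pit, had 10.4, 10.4 and 7.15 CPM in WT and 5.03, 5.55 and 5.80 CPM in Sh3gl1-/- follicular cells (log2 fold change -0.77, SE 0.23, adjusted p = 0.20 from edgeR). Hip1 had 11.8, 12.2 and 12.6 CPM against 6.46, 7.08 and 9.45 CPM (-0.67, SE 0.20, adjusted p = 0.20 from edgeR). Both had non-overlapping ranges in follicular cells, and neither passed the test. In all, 8 of 45 genes had every knockout library below every WT library (Ap2s1, Bin1, Synj2, Eps15, Itsn1, Hip1, Fnbp1 and Pacsin1) and 0 had every knockout library above, where 7.98% and 8.06% of all genes did so (16% in either direction).

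After CD40L culture 0 of 45 genes were called between genotypes by edgeR or by DESeq2, where edgeR called 0.0227% of all genes. An unadjusted p under 0.05 was found for 4 genes, Ap2a1, Synj2, Fcho1 and Itsn1, named here after their values were seen. Over all genes it was found for 932 of the 13188 tested. Ap2a1, a large AP2 subunit at a low level, had 2.49, 2.67 and 2.26 CPM in WT and 4.94, 6.87 and 4.20 CPM in Sh3gl1-/- cells (log2 fold change 1.13, SE 0.31, adjusted p = 0.48 from edgeR). Its reads may include those of Fuz on the other strand. The ranges did not overlap for 11 of the 45 genes, 8 higher (Cltb, Ap2a1, Ap2s1, Fcho1, Fcho2, Pacsin1, Sh3kbp1 and Aak1) and 3 lower (Bin3, Synj2 and Itsn1) in the knockout, where 13.8% of all genes did not overlap (6.21% higher, 7.62% lower).

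The 6 genes named by the study were not called in any of the 3 comparisons of genotype. For Picalm, Dnm2, Eps15, Itsn2 and Epn1 the log2 fold changes lay between -0.23 and 0.25, with standard errors from 0.08 to 0.24, and the smallest adjusted p from edgeR was 0.19, for Eps15 in transitional cells. Hip1 was at -0.08 (SE 0.22) in transitional, -0.67 (SE 0.20) in follicular and 0.00 (SE 0.21) in CD40L-cultured cells. A p above the threshold does not show that the levels were equal.

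**Figure D2:**
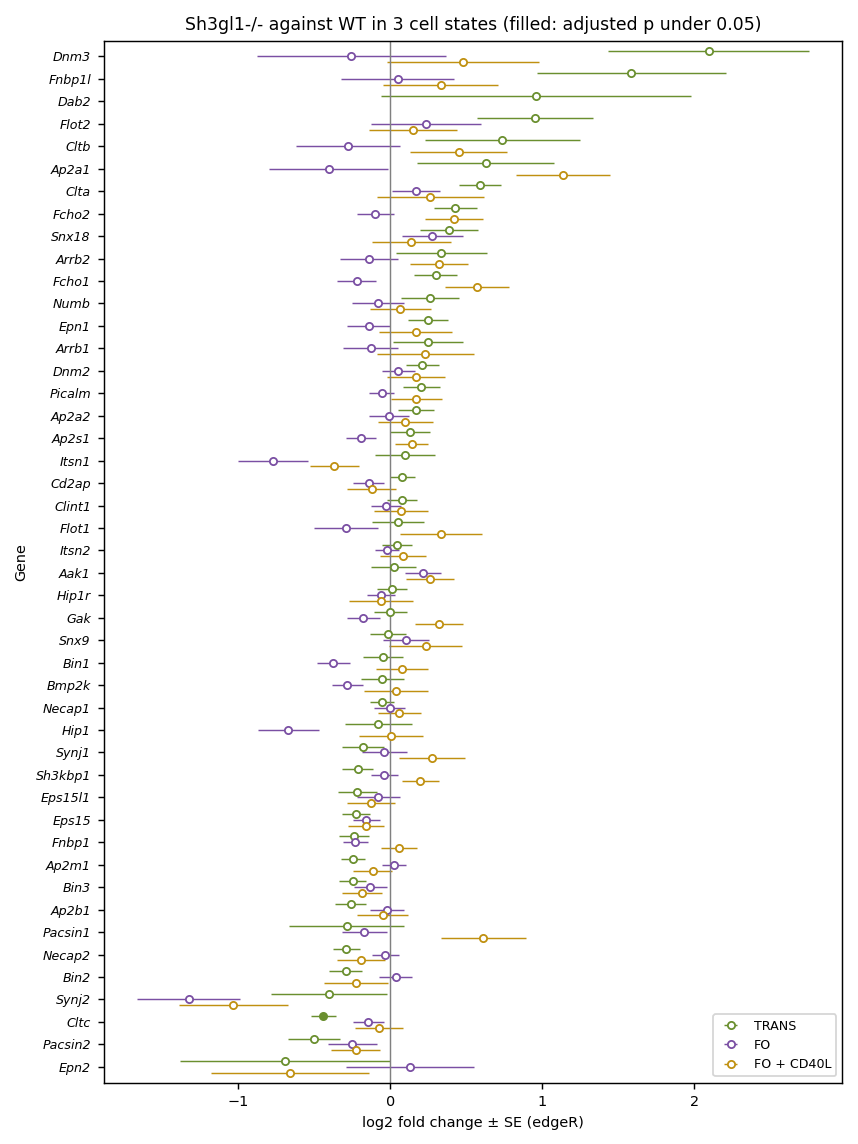
Log2 fold change of Sh3gl1-/- against WT (x axis, points with ± SE) for the 46 genes tested (y axis) in transitional, follicular and CD40L-cultured cells. Cltc in transitional cells, at -0.44, is the gene called at an adjusted p under 0.05.

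Cells cultured with CD40L were compared with follicular cells ex vivo. No culture without CD40L is among the samples, so the ligand and the culture itself cannot be told apart. CD40L is the ligand by which helper T cells stimulate B cells through CD40. More genes were called between the cultured and ex vivo cells than between the genotypes. In WT cells 26 of 45 genes were called between CD40L-cultured and ex vivo follicular cells, 10 higher and 16 lower, and in Sh3gl1-/- cells 26 were called as well, 13 higher and 13 lower. Of all genes tested 49.3% were called in WT (23.6% higher, 25.7% lower) and 42.4% in Sh3gl1-/- cells (20.6% higher, 21.8% lower), so that the share of the listed genes, 57.8% in both genotypes, stood against a broad background. The median log2 fold change of the 45 genes was -0.26 in WT and 0.04 in Sh3gl1-/- cells, against -0.08 and -0.03 over all genes. The 4 activation genes Cd80, Cd86, Fas and Icam1 summed to 71.9 to 103 TPM ex vivo and 353 to 509 TPM after culture. The means of Cd80, Fas and Icam1 were higher after culture in both genotypes. Cd86 did not rise in WT (means of 48.6 TPM ex vivo and 46.6 TPM after culture), and in Sh3gl1-/- cells it had 31.6 and 45.4 TPM. The B-cell marker Cd79a was lower after culture (2060 to 2490 TPM against 3160 to 3750 TPM ex vivo), as were erythroid genes (4.83 to 423 TPM against 1680 to 10300 TPM), and the part of either in these calls was not tested. The same 21 genes were called in both genotypes in the same direction, 9 higher and 12 lower, which is 80.8% of each list. The remaining calls were Ap2a2, Fcho1, Eps15, Epn1 and Gak in WT and Ap2a1, Hip1, Arrb2, Necap2 and Flot1 in Sh3gl1-/- cells.

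The difference between the genotypes in the response to CD40L was itself tested, and 0 of 45 genes were called by edgeR or DESeq2, where 0% of all genes were called by edgeR. An unadjusted p under 0.05 was found for 7 of the 45 genes, and for 1278 of all 14460 genes tested. The genes called in 1 genotype are therefore not shown to respond differently: for Fcho1, for example, WT cells responded with -0.82 (SE 0.17), Sh3gl1-/- cells had -0.04 (SE 0.17), and the difference of 0.78 (SE 0.25) had an adjusted p of 0.47 from edgeR.

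**Figure D3:**
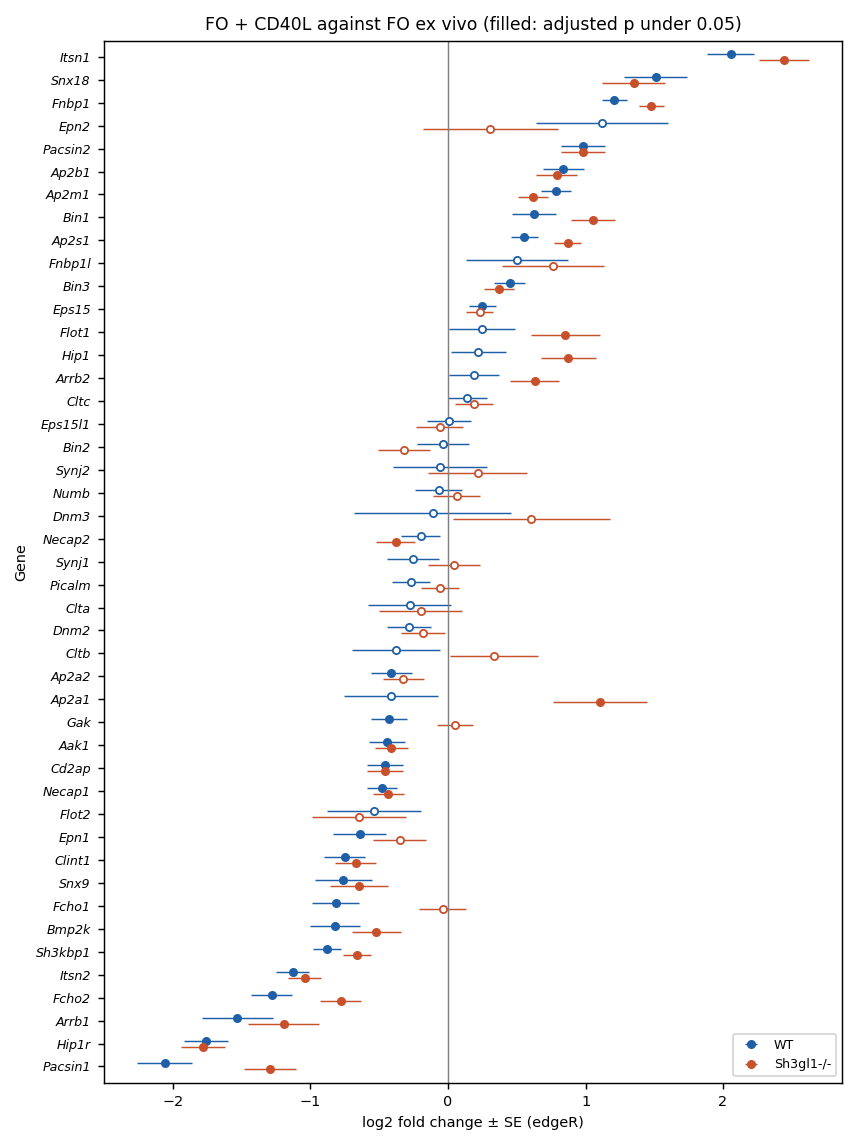
Log2 fold change of CD40L-cultured against ex vivo follicular cells (x axis, points with ± SE) for 45 genes (y axis) in WT (blue) and Sh3gl1-/- (orange) cells, filled where the adjusted p is under 0.05. Itsn1 and Fnbp1 stand far to the right in both genotypes, and Pacsin1 and Hip1r far to the left.

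By role, the clathrin coat itself showed no call: 0 of 3 coat genes were called in either genotype, with Cltc at 212, 278 and 273 CPM after CD40L against 205, 232 and 243 CPM ex vivo in WT (log2 fold change 0.14, SE 0.14). The AP2 complex, which couples clathrin to membrane and cargo, was mostly higher. In WT 3 of its 5 genes rose and 1 fell, and in Sh3gl1-/- cells 4 rose. Ap2m1 went from 286, 322 and 294 CPM to 463, 545 and 574 CPM in WT and from 295, 334 and 290 to 521, 405 and 504 CPM in Sh3gl1-/- cells. Every cultured library lay above every ex vivo library, with log2 fold changes of 0.78 (SE 0.11, adjusted p = 7.0e-05) and 0.62 (SE 0.11, adjusted p = 0.00065) from edgeR. Ap2s1 rose by 0.56 and 0.87 and Ap2b1, whose reads may be mixed with those of the opposite strand, by 0.84 and 0.79 in WT and Sh3gl1-/- cells. The summed TPM of the 5 AP2 genes was 340 ± 18.8 ex vivo and 463 ± 56.1 after CD40L in WT (SD, n = 3). In Sh3gl1-/- cells Ap2a1 had 2.33, 2.42 and 2.58 CPM ex vivo and 4.94, 6.87 and 4.20 CPM after CD40L (1.10, SE 0.34, adjusted p = 0.019 from edgeR), a call lost without follicular Sh3gl1-/- library 1 or CD40L Sh3gl1-/- library 2, at 1.07 and 0.89.

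Among the nucleators and scaffolds, which mark the site of a new pit, 2 of 6 genes rose and 3 fell in WT, and 1 rose and 2 fell in Sh3gl1-/- cells. The intersectins moved in opposite directions. Itsn1 rose from 10.4, 10.4 and 7.15 CPM to 44.3, 39.6 and 35.1 CPM in WT, a 4.16-fold difference (log2 fold change 2.06, SE 0.17, adjusted p = 4.9e-07 from edgeR). The knockout values rose from 5.03, 5.55 and 5.80 CPM to 29.2, 33.7 and 27.4 CPM, 5.44-fold (2.44, SE 0.18, adjusted p = 1.8e-07 from edgeR). Ranges were far apart in both genotypes, and the gene was at 6.77 to 9.2 CPM in the 6 transitional libraries. Itsn2 fell from 229, 224 and 214 CPM to 122, 96.8 and 92.8 CPM in WT and from 212, 211 and 235 CPM to 102, 120 and 101 CPM in Sh3gl1-/- cells (-1.13 and -1.04, SE 0.12 and 0.12, adjusted p = 3.9e-06 and 1.1e-05 from edgeR). The protein-coding genes Atp5o, for Itsn1, and Gm3625 and Fam228a, for Itsn2, overlap on the opposite strand, and their reads could not be separated. Fcho2, an F-BAR protein that is among the first to arrive at a pit, fell from 47.8, 41.6 and 37.2 CPM to 21.0, 18.3 and 13.9 CPM in WT (-1.28, SE 0.15, adjusted p = 1.3e-05) and from 40.2, 42.3 and 35.9 CPM to 23.2, 23.3 and 23.2 CPM in Sh3gl1-/- cells (-0.78, SE 0.15, adjusted p = 0.00099 from edgeR).

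Of the cargo and membrane adaptors, 5 of 11 genes fell and 0 rose in WT, and 5 fell and 2 rose in Sh3gl1-/- cells. Their summed TPM was 277 ± 16.3 ex vivo and 184 ± 8.42 after CD40L in WT, and 261 ± 8.09 and 196 ± 21.1 in Sh3gl1-/- cells (SD, n = 3). Part of the fall of the WT sum came from Picalm (41.7 to 25.2 TPM) and Necap2 (95.3 to 73 TPM), neither of which was called in WT. In CPM their WT means went from 96.8 to 81.9 and from 134 to 119, a smaller fall than in TPM. Hip1r, which ties clathrin light chains to actin, had 86.9, 86.5 and 83.3 CPM ex vivo and 27.1, 26.5 and 23.5 CPM after CD40L in WT, 3.39-fold lower (log2 fold change -1.76, SE 0.16, adjusted p = 8.2e-07 from edgeR). The knockout had 81.1, 86.4 and 78.8 CPM and 17.3, 28.2 and 26.9 CPM, 3.44-fold lower (-1.78, SE 0.16, adjusted p = 9.8e-07 from edgeR). Its range in the 6 transitional libraries, 78.4 to 94.3 CPM, overlapped that of the follicular cells ex vivo. Vps37b overlaps the gene on the other strand. The arrestin Arrb1, which hands activated G-protein-coupled receptors to the coat, had 12.2, 14.3 and 10.8 CPM and then 5.11, 3.81 and 4.22 CPM in WT, and 9.99, 11.4 and 12.8 CPM and then 3.46, 7.03 and 4.64 CPM in Sh3gl1-/- cells (-1.53 and -1.19, SE 0.26 and 0.26, adjusted p = 0.00023 and 0.0020 from edgeR). Clint1 (-0.75 and -0.67) and Necap1 (-0.48 and -0.43) fell in both genotypes. Of the genes followed by the study, Epn1 fell in WT (-0.64, SE 0.19) and had -0.35 (SE 0.19) in Sh3gl1-/- cells, while Picalm had -0.27 (SE 0.14) and -0.06 (SE 0.14).

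BAR-domain genes other than endophilins, whose products bend membrane, went both ways, with 5 of 9 higher and 2 lower in each genotype. Fnbp1, an F-BAR protein that couples curvature to actin, rose from 251, 243 and 231 CPM to 600, 575 and 533 CPM in WT (log2 fold change 1.21, SE 0.09, adjusted p = 2.2e-07 from edgeR) and from 212, 210 and 196 CPM to 532, 577 and 633 CPM in Sh3gl1-/- cells (1.48, SE 0.09, adjusted p = 4.5e-08 from edgeR). This was the smallest adjusted p among the listed genes in both genotypes. Snx18 rose from 9.53, 7.35 and 9.93 CPM to 36.7, 20.5 and 20.6 CPM in WT and from 11.6, 9.83 and 11 CPM to 27.5, 32.9 and 23.6 CPM in Sh3gl1-/- cells (1.51 and 1.35, SE 0.23 and 0.23, adjusted p = 0.00011 and 0.00037 from edgeR). Its paralog Snx9, which like Snx18 recruits dynamin through an SH3 domain, fell (-0.76 and -0.65). Bin1 had 248, 230 and 184 CPM and then 262, 440 and 337 CPM in WT (0.62, SE 0.16, adjusted p = 0.0050), and 175, 170 and 166 CPM and then 375, 329 and 369 CPM in Sh3gl1-/- cells (1.05, SE 0.16, adjusted p = 0.00013 from edgeR).

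The syndapins also moved in opposite directions. Pacsin1, best known from neurons, had 14.6, 15.1 and 13.5 CPM ex vivo and 4.14, 3.81 and 2.63 CPM after CD40L in WT, 4.17-fold lower (log2 fold change -2.06, SE 0.20, adjusted p = 1.8e-06 from edgeR). The corresponding knockout libraries had 13.2, 12.3 and 13.1 CPM and then 5.01, 5.59 and 5.26 CPM (-1.29, SE 0.19, adjusted p = 0.00012 from edgeR). Pacsin2, the widely expressed member, rose from 21.1, 17.1 and 19.1 CPM to 34.1, 37.6 and 43.6 CPM in WT and from 16.3, 18.2 and 13.6 CPM to 37.4, 29.7 and 29.2 CPM in Sh3gl1-/- cells (0.98 and 0.98, SE 0.16 and 0.16, adjusted p = 0.00014 and 0.00021 from edgeR). None of these ranges overlapped between the states.

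Both SH3 adaptors fell in both genotypes: Sh3kbp1, a scaffold that joins CBL to endophilins, went from 196, 218 and 235 CPM to 118, 121 and 121 CPM in WT (log2 fold change -0.88, SE 0.10, adjusted p = 6.2e-06) and from 208, 201 and 223 CPM to 136, 141 and 127 CPM in Sh3gl1-/- cells (-0.66, SE 0.10, adjusted p = 0.00010 from edgeR). Cd2ap fell by 0.46 and 0.46 on the log2 scale. The AP2 kinases Aak1 (-0.44 and -0.41) and Bmp2k (-0.82 and -0.52) fell in both genotypes as well. No dynamin was called, with Dnm2 at -0.28 (SE 0.16) and -0.18 (SE 0.16). Of the 3 uncoating genes tested Gak fell in WT (-0.43, SE 0.13) and had 0.05 (SE 0.13) in Sh3gl1-/- cells. Of the flotillins, which form clathrin-independent membrane domains, Flot1 rose in Sh3gl1-/- cells (0.85, SE 0.25) and had 0.25 (SE 0.24) in WT.

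**Figure D4:**
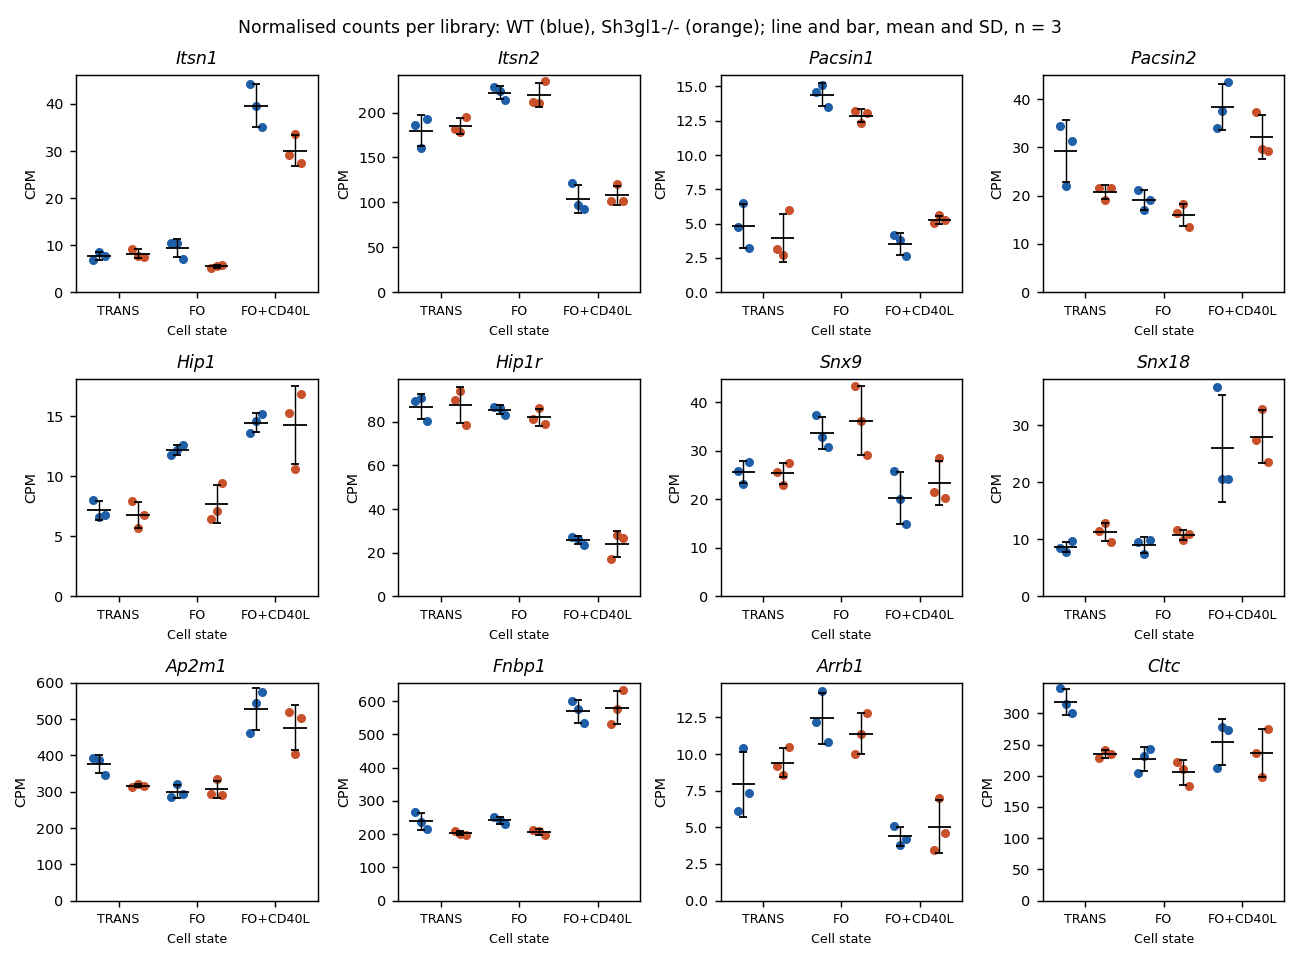
CPM on TMM-scaled library sizes (y axes, linear from 0) of 12 genes in the 6 groups (x axes), with a point for each library and bars for mean and SD. Itsn1, Pacsin2, Snx18, Fnbp1 and Ap2m1 sit higher after CD40L and Itsn2, Pacsin1, Hip1r, Snx9 and Arrb1 lower, in WT and Sh3gl1-/- cells.

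The step from transitional to follicular cells was compared within each genotype. In WT 20 of 46 genes were called, 13 higher and 7 lower in follicular cells, where 25.9% of all genes were called (11.7% higher, 14.2% lower). In Sh3gl1-/- cells 9 of 46 were called, 4 higher and 5 lower, against 10.4% of all genes (3.7% higher, 6.71% lower). Of these, 6 genes were called in both genotypes with the same direction, which is 30% of the WT list and 66.7% of the Sh3gl1-/- list. The difference between genotypes in this step was tested, and 0 of 46 genes were called by edgeR or DESeq2. Over all genes edgeR called 0.0686%. Of the 46 genes, 8 had an unadjusted p under 0.05, as did 1992 of all 14580 genes tested. The smaller number of calls in Sh3gl1-/- cells is thus not shown for any single gene to be a different step. Markers of other cells moved with this step. The 4 macrophage and monocyte markers summed to 317 to 373 TPM in transitional and 94.7 to 125 TPM in follicular WT libraries and to 268 to 494 and 98.6 to 223 TPM in Sh3gl1-/- libraries, with 0 of the 4 at 0 throughout a group. The sums of marginal-zone and plasma-cell genes were also lower in follicular libraries, at the values given above for the former. The follicular plasma-cell sums were 51.9 to 110 TPM in WT and 116 to 140 TPM in Sh3gl1-/- cells. Most of these came from Jchain, at 40 to 92.8 and 99.2 to 121 TPM. The mean TPM of Sdc1, Prdm1 and Xbp1 fell in Sh3gl1-/- cells but not in WT. Dtx1 of the marginal-zone list had a mean of 27.3 TPM in transitional and 29.5 TPM in follicular WT cells. In Sh3gl1-/- cells Dtx1 had 20.1 and 24.1 TPM. The ranges of the erythroid sums overlapped. The part of these cells in the calls was not tested.

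Pacsin1 was the largest call shared by the genotypes. It had 4.72, 6.48 and 3.24 CPM in WT transitional cells and 14.6, 15.1 and 13.5 CPM in WT follicular cells, 3.01-fold higher (log2 fold change 1.59, SE 0.28, adjusted p = 0.0011 from edgeR). Knockout cells had 3.16, 2.74 and 5.97 CPM and then 13.2, 12.3 and 13.1 CPM (1.69, SE 0.28, adjusted p = 0.0014 from edgeR). After CD40L the 6 libraries were at 2.63 to 5.59 CPM, close to the 2.74 to 6.48 CPM of the 6 transitional libraries. Bmp2k, an AP2 kinase, rose from 99.0, 76.0 and 70.8 CPM to 173, 139 and 156 CPM in WT (0.94, SE 0.13, adjusted p = 0.00026) and from 85.0, 67.4 and 84.8 CPM to 125, 121 and 140 CPM in Sh3gl1-/- cells (0.69, SE 0.13, adjusted p = 0.0042 from edgeR). Paqr3 overlaps Bmp2k on the opposite strand.

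Flot1 fell from 19.1, 13.5 and 18.3 CPM to 12.5, 10.4 and 8.13 CPM in WT (log2 fold change -0.70, SE 0.18, adjusted p = 0.012) and from 17.2, 19.4 and 16.1 CPM to 8.72, 8.10 and 8.59 CPM in Sh3gl1-/- cells (-1.06, SE 0.18, adjusted p = 0.0018 from edgeR). Necap2 fell from 203, 189 and 196 CPM to 121, 145 and 137 CPM in WT (-0.54, SE 0.09, adjusted p = 0.00074) and from 159, 175 and 146 CPM to 136, 133 and 126 CPM in Sh3gl1-/- cells (-0.29, SE 0.09, adjusted p = 0.049 from edgeR). The scaffold Eps15 (-0.36 and -0.31) and Bin3 (-0.49 and -0.39) were the other genes lower in both genotypes. The Sh3gl1-/- calls of Necap2, Eps15 and Bin3 were each lost without at least 1 of the libraries: Necap2 was kept in 2 of 12 such fits, Eps15 in 8 and Bin3 in 9.

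In WT alone the 3 coat genes were all called. Cltc fell from 341, 315 and 300 CPM to 205, 232 and 243 CPM (log2 fold change -0.48, SE 0.09, adjusted p = 0.0015), Clta rose from 12.7, 11.8 and 11 CPM to 23.3, 19.9 and 16.6 CPM (0.76, SE 0.15, adjusted p = 0.0028), and Cltb rose from 1.03, 1.27 and 1.03 CPM to 4.99, 2.84 and 3.46 CPM (1.77, SE 0.44, adjusted p = 0.0095 from edgeR). No WT transitional library overlapped a WT follicular library for these genes. In Sh3gl1-/- cells Cltc was at 228, 241 and 235 CPM in transitional and 222, 211 and 183 CPM in follicular cells, and the difference of 0.28 (SE 0.13) between the genotypes had an adjusted p of 0.35 from edgeR. Hip1 rose in WT from 8.06, 6.63 and 6.79 CPM to 11.8, 12.2 and 12.6 CPM (0.77, SE 0.20, adjusted p = 0.011 from edgeR).

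Pacsin2 fell in WT from 34.4, 22.0 and 31.4 CPM to 21.1, 17.1 and 19.1 CPM (log2 fold change -0.61, SE 0.17, adjusted p = 0.015 from edgeR). Arrb1 rose from 6.08, 10.4 and 7.34 CPM to 12.2, 14.3 and 10.8 CPM (0.65, SE 0.21, adjusted p = 0.034 from edgeR). Numb, an endocytic adaptor of Notch signalling, rose from 8.95, 13.7 and 10 CPM to 16.1, 17.5 and 14.1 CPM (0.55, SE 0.18, adjusted p = 0.036 from edgeR). In TPM Numb hardly differed, at 11.1 ± 1.79 in transitional and 11.5 ± 2.16 in follicular WT cells (SD, n = 3). Each of these 3 calls rested on single libraries: Arrb1 and Numb lost theirs without WT transitional library 1 or 3 or WT follicular library 1 or 2, with values from 0.49 to 0.67 and from 0.43 to 0.55, and Pacsin2 without WT transitional library 1 (-0.48) or WT follicular library 2 (-0.54). Picalm, Itsn2, Fcho1, Fcho2, Ap2a2 and Cd2ap were higher and Ap2m1 lower in WT follicular cells, with log2 fold changes between -0.32 and 0.49. Fcho1 hardly differed in mean TPM (13.2 in transitional and 13.4 in follicular WT cells), while the others moved in TPM as called. The cause of the disagreement between CPM and TPM for Numb and Fcho1 was not tested.

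In Sh3gl1-/- cells alone Dnm3, Snx9 and Sh3kbp1 were called. Snx9 rose from 25.6, 23.0 and 27.4 CPM to 43.4, 36.1 and 29.1 CPM (log2 fold change 0.50, SE 0.14, adjusted p = 0.034), and Sh3kbp1 from 155, 163 and 157 CPM to 208, 201 and 223 CPM (0.40, SE 0.10, adjusted p = 0.016 from edgeR). Dnm3, a dynamin with little expression outside brain and testis, had 2.52, 1.66 and 4.96 CPM and then 0.676, 0.830 and 0.286 CPM (-2.34, SE 0.68, adjusted p = 0.041 from edgeR). These calls were kept in 8, 9 and 5 of the 12 fits that left out 1 library, respectively.

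Paralog families were then compared by the share of a family's summed TPM carried by its most abundant member, which does not depend on the total of the family. Of the 14 families with at least 2 members at a mean of 1 TPM, 10 differed in share between CD40L-cultured and ex vivo follicular cells in an exact permutation test with the state labels exchanged within genotype (two-sided, adjusted p = 0.0078 over the 14 families for 9 of them and 0.042 for Bmp2k with Aak1). The unadjusted p of those 9, 0.005, is the smallest that the 400 relabellings can give. The families consist of listed genes, which were chosen with results known, and the shares repeat in part what the single genes showed. Bmp2k lost its place with same-numbered libraries taken as pairs (adjusted p = 0.11 by the exact test), and the other 9 were kept at 0.049. Those 9 stood at the smallest unadjusted p that the paired test can give.

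Pacsin2 carried 43.0%, 40.1% and 44.5% of the Pacsin transcripts in WT follicular cells ex vivo and 44.6%, 47.0% and 37.2% in Sh3gl1-/- cells. After CD40L it carried 81.9%, 85.5% and 90.5% in WT and 82.5%, 72.3% and 76.6% in Sh3gl1-/- cells, a difference of 38.8 percentage points over both genotypes. Transitional cells were already at 67.2% to 83.2%. The leading Pacsin gene was therefore Pacsin2 in transitional and CD40L-cultured cells and Pacsin1 in follicular cells ex vivo, in each of the libraries.

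Hip1r carried 81.1% to 91.3% of the Hip1 and Hip1r transcripts in the 6 follicular libraries ex vivo and 48.7% to 61.2% in the 6 libraries after CD40L (a difference of -31.8 percentage points). Snx9 went from 83.2% to 89.4% of its pair with Snx18 down to between 56.9% and 64.7% (-26.4 points), and Itsn2 from 95.4% to 98.6% of the intersectins down to between 71.8% and 80.0% (-20.7 points). For these 3 pairs the ex vivo and cultured libraries did not overlap. Smaller shifts were those of Bin1 (14.1 points), Arrb2 (11.1), Fcho1 (10.1) and Eps15 (5.1), which gained share, and Sh3kbp1 (-3.2) and Bmp2k (-1.9), which lost it. No difference in share passed the test for Clta with Cltb, Ap2a2 with Ap2a1, Necap2 with Necap1 or Flot1 with Flot2.

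Between transitional and follicular cells 3 families differed in the same test: Pacsin2 by -34.0 points and Necap2 by -6.4 points (adjusted p = 0.035 for both, exact permutation test) and Flot1 by -9.5 points (adjusted p = 0.047, exact permutation test). With same-numbered libraries taken as pairs 0 of the 14 families passed, at an adjusted p of 0.087 for all 3 by the exact test. The paired test has so few possible sign changes that none could pass unless most of the 14 families stood at its smallest p. It could therefore not decide whether these 3 shifts hold.

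**Figure D5:**
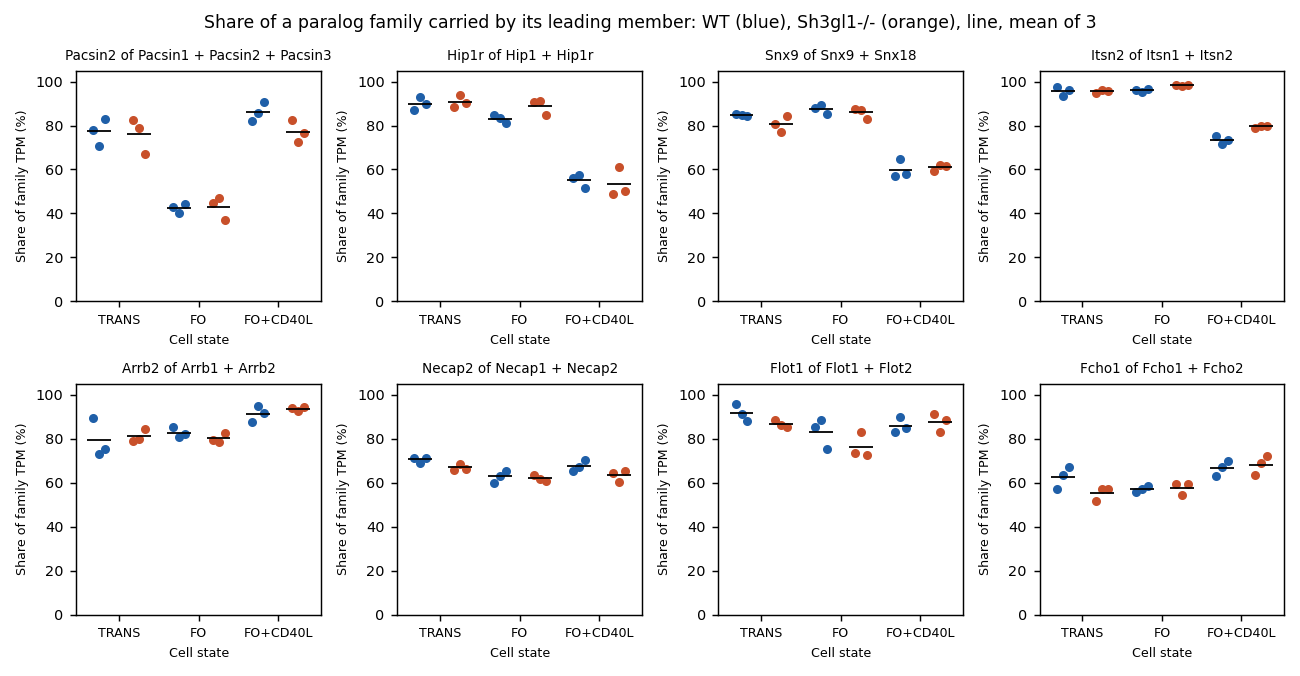
Share of a family's summed TPM carried by the named member (y axes, percent) in the 6 groups (x axes) for 8 paralog families, with a point per library (WT blue, Sh3gl1-/- orange) and a line at the mean of 3. Pacsin2 dips to between 37.2% and 47.0% in follicular cells ex vivo, and Hip1r, Snx9 and Itsn2 drop after CD40L in both genotypes.

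Genes of neighbouring routes were counted from lists of other BAR-domain proteins, endophilins and their partners, caveolae, the CLIC/GEEC route, Golgi and endosomal clathrin adaptors, phosphoinositide and uncoating partners, and actin at pits. Between genotypes 5 of the 61 genes of these lists tested besides Sh3gl1 were called in transitional cells, where 3.73% of all genes were called. Trip10, an F-BAR partner of Cdc42 that acts beside endophilins, was at 4.38 ± 1.41 CPM in WT and 1.3 ± 0.0706 CPM in Sh3gl1-/- transitional cells (SD, n = 3, log2 fold change -1.74, SE 0.36, adjusted p = 0.036 from edgeR). The ubiquitin ligase Cblb (-0.52) and the phosphatase Inpp5b (-0.51) were lower, and the endosomal BAR-domain genes Snx5 (0.51) and Appl2 (1.16) were higher. In follicular and CD40L-cultured cells Sh3gl1 was the 1 gene of these lists that was called between genotypes. Of the other endophilins, Sh3glb1 and Sh3glb2 were tested and did not pass in any state: Sh3glb1 had log2 fold changes of 0.13, -0.19 and 0.14 in transitional, follicular and CD40L-cultured cells, and Sh3glb2 -0.09, -0.16 and 0.16. Sh3gl2, the neuronal endophilin A1, had 0 counts in all 6 groups and Sh3gl3 at most 2 counts in a library, and neither was tested.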

How the data were processed

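Poly(A) RNA of 18 libraries was analysed: transitional and follicular B cells ex vivo and follicular B cells cultured with CD40L, from WT and Sh3gl1-/- mice, 3 per group. The authors deposited RSEM expected counts, TPM and FPKM per gene. Per the labels, reads were trimmed with cutadapt 1.9.1, aligned to GRCm38 with STAR 2.5.2a and quantified with RSEM 1.3.0, from stranded KAPA libraries. The study's methods name other library kits and quantification tools and an overnight culture, and the conflict could not be settled from the files. Expected counts share reads between similar genes by estimation, which affects paralogs most. The deposited FPKM were not used.

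Expected counts were rounded and tested with edgeR 4.0.16 (limma 3.58.1, R 4.3.3) using TMM, filterByExpr with a minimum count of 10, quasi-likelihood tests and Benjamini-Hochberg adjustment over all genes tested, with calls at an adjusted p under 0.05. Genotypes were compared in the 6 libraries of a state, and states and differences of differences in 12 libraries. The SE of a log2 fold change was its absolute value divided by the square root of F. CPM were computed on TMM-scaled sizes over 18 libraries. TPM served for levels between genes and for paralog shares, which were tested by exact permutation. The edgeR p-values measure the spread between the 3 libraries of each group, and the counting floors cover counting error only. The study gives 3 mice of each genotype, so libraries of different states may come from the same animals. The main tests between states treat such libraries as independent. All table columns were assigned to samples by their names. Gene symbols matched 51633 of the 51912 identifiers.

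The genes, families, marker lists and pathway lists were chosen with earlier results of these data known. Values per library are given for genes called between genotypes and for the 10 largest called changes of each comparison of states. They are also given for the 6 highest levels in WT follicular cells and for genes at or under 3 counts throughout. The last set is Epn1, Picalm, Hip1, Eps15, Itsn2 and Dnm2, which the study names. Other genes with such values were chosen after their values were seen. Same-numbered libraries deviated together, with every r over 0.1, for follicular and CD40L WT libraries (0.136 to 0.224) and for transitional and follicular libraries of WT (0.103 to 0.242) and Sh3gl1-/- mice (0.115 to 0.263), which the fits with a replicate block use. For follicular and CD40L Sh3gl1-/- libraries r was lower (0.0304 to 0.119), though each follicular library still had its highest r with the CD40L library of its number. Between genotypes r ran from -0.0875 to 0.101, and the same number mostly did not give the highest r. The main fits of states did not use these pairs. Alternatives were RLE size factors, all genes with at least 1 count, a minimum count of 50, the replicate block, DESeq2 1.42.0, a fit over 18 libraries and leaving out each library. For paralog shares they were shares of counts, families at 5 TPM, same-numbered pairs and leaving out each replicate number. The statistics were tested on simulated data. Promoter windows came from RefSeq, GRCm38.p6.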

Additional observations from a re-analysis of the deposited data

How the results depend on the processing

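The count of called genes between genotypes in transitional cells, 1 as reported, was 5 with all genes of at least 1 count (Cltc, Clta, Dnm3, Fcho2 and Pacsin2), 5 with DESeq2 (Cltc, Clta, Ap2m1, Dnm3 and Necap2), 2 with the stricter filter, 0 with the replicate block, 0 in the fit over 18 libraries and between 0 and 1 without single libraries. With the replicate block, whose numbers do not pair the genotypes, Cltc had an adjusted p of 0.074 from edgeR. In follicular cells the count of 0 became 2 with all genes and 2 with DESeq2 (Bin1 and Synj2 in each), and between 0 and 1 without single libraries, Bin1 being called without WT library 3. The 9 genes called between follicular and transitional Sh3gl1-/- cells became 4 to 9 without single libraries, with 4 without follicular Sh3gl1-/- library 1 or 3 and 5 without transitional Sh3gl1-/- library 1 or 2. Families shifted after CD40L numbered 5 instead of 10 when 2 members had to reach 5 TPM, where fewer families are tested. Families shifted between transitional and follicular cells numbered 1 at 5 TPM and 0 with the replicate block. The latter test could not pass so few families, as stated above, and draws no conclusion on them. With shares of counts in place of TPM, over both comparisons of states, 12 called shares kept their call and 1 lost it. Family counts without single replicate numbers were not made, since too few relabellings remain for a call. The cause of the other differences was not tested.

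Signs turned for values near 0. Hip1 after CD40L, 0.00 between genotypes as reported, was -0.02 with RLE size factors, -0.00 with all genes, -0.02 with the replicate block, -0.01 with DESeq2, -0.03 over 18 libraries and -0.14 to 0.17 without single libraries. Without single libraries Hip1 in transitional cells ranged from -0.20 to 0.04, Itsn2 from -0.03 to 0.10 in transitional, -0.07 to 0.01 in follicular and -0.01 to 0.20 in CD40L-cultured cells, and Dnm2 from -0.04 to 0.13 in follicular and -0.06 to 0.29 in CD40L-cultured cells. The counts of genes called after CD40L stayed within 24 to 27 under the alternatives that kept all libraries, and the 2 tests of differences between genotypes gave 0 calls under every alternative run. The 3 mice per group and low counts for Synj2, Ap2a1, Cltb and Dnm3 limit what these comparisons could detect.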

Other observations

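Genes of neighbouring membrane routes also differed between the states, as counted from the lists named in the report. After CD40L, 12 of 20 other BAR-domain genes fell and 4 rose in WT, and 8 fell and 3 rose in Sh3gl1-/- cells. Over all genes tested 25.7% fell and 23.6% rose in WT, and 21.8% fell and 20.6% rose in Sh3gl1-/- cells, against which these and the following counts stand. Snx2, a retromer sorting nexin and one of the most abundant of them, was at 1240 ± 65.1 CPM ex vivo and 559 ± 47.8 CPM after CD40L in WT (SD, n = 3, log2 fold change -1.18, SE 0.09) and at 1200 ± 46.8 and 548 ± 56.3 CPM in Sh3gl1-/- cells (-1.15, SE 0.09). The tyrosine kinase Fes fell by 3.19 and 4.13 on the log2 scale and Mtss1 by 1.74 and 1.37. Hspa8, the chaperone that pulls clathrin off vesicles, rose by 2.15 (SE 0.30) in WT, and in knockout cells by 1.31 (SE 0.29), with WT libraries between 2550 and 7110 CPM after CD40L and between 754 and 1300 CPM ex vivo. Of the 13 Golgi and endosomal clathrin adaptors 1 rose (Ap1s1) and 1 fell (Gga2) in WT, and in Sh3gl1-/- cells Gga1 rose as well. CLIC/GEEC genes rose in 2 and fell in 1 of 5 cases in each genotype, phosphoinositide and uncoating partners rose in 1 of 7 in both and fell in 1 in WT and 3 in Sh3gl1-/- cells, actin genes rose in 1 of 5 in WT and 2 in Sh3gl1-/- cells, and the remaining endophilin partners rose in 2 and fell in 2 of 7 in both. Of the 2 caveolar genes tested, Ehd2 fell in both genotypes, and Cav2 was called in WT, where it had 0 to 22 counts ex vivo, all of them in 1 library, and 0 counts after CD40L. Of the endophilins tested, Sh3gl1 itself rose in WT (0.68, SE 0.18) while Sh3glb1 (-0.74) and Sh3glb2 (-0.52) fell.

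Between transitional and follicular cells 5 of 13 Golgi and endosomal adaptors fell in WT and 0 rose, and in Sh3gl1-/- cells Ap1s2 fell. Over all genes tested 14.2% fell and 11.7% rose in WT, and 6.71% fell and 3.7% rose in Sh3gl1-/- cells. Gas7, an F-BAR gene, was at 28.2 ± 0.465 CPM in transitional and 2.10 ± 0.0749 CPM in follicular WT cells (SD, n = 3, log2 fold change -3.74, SE 0.31) and at 17.9 ± 6.81 and 2 ± 0.853 CPM in Sh3gl1-/- cells (-3.18, SE 0.31). In the same WT libraries the macrophage markers Csf1r, Adgre1 and Lyz2 had 56.7 ± 13.8, 67.8 ± 19.2 and 261 ± 36.6 CPM in transitional and 6.78 ± 1.3, 7.77 ± 2.37 and 92.3 ± 16.1 CPM in follicular cells (SD, n = 3), and their part in this difference was not tested. Other BAR-domain genes rose in 2 and fell in 5 of 20 cases in WT and fell in 3 in Sh3gl1-/- cells. In WT 3 of 6 actin genes rose and 1 fell, and in Sh3gl1-/- cells 0 were called by edgeR. The differences between genotypes in either step held 0 calls by edgeR in any of these lists. The genes named here were chosen after their values were seen.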
